A study of Oncorhynchus mykiss with 27 samples.

Results

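The clones of 3 enzymes of sulfur amino acid and polyamine metabolism were followed in testis explants of rainbow trout (*Oncorhynchus mykiss*), among 9024 cDNA clones on the arrays. They were *cth* (clone 1rt101a07_a_a04, cystathionine gamma-lyase), *odc1* (clone tcay0038.l.22, ornithine decarboxylase) and the clone annotated as cystathionine beta-synthase (tcbk0056.k.20), written here as *cbs*. These clones belong to a list that the study named, and that list had been chosen on these same arrays by its response to Fsh. The levels with Fsh, and every difference that shares a group with a comparison of Fsh, are therefore given as a description with no test. Tested as exceptions were a mean effect of trilostane over both Fsh doses and a mean effect of culture over the 4 treatments. With groups of equal size, their errors are independent of the errors in the comparisons of Fsh. The effects themselves still include the levels with Fsh. A rise with Fsh therefore lifts the mean of culture, and a response to Fsh that differs with trilostane moves the mean of trilostane. The study had also filtered its list on level, where a clone had to reach the median of the experiment in 1 group or more. The effect of culture is not free of this filter for a clone that reached the median only in culture.

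Testes of an all-male population were cut into small pieces, and the pieces of all fish were pooled and spread over wells. Arrays were made of 6 wells each after 96 h without any substance (Ctrl), with Fsh at 500 ng/mL (Fsh), with 10 µg/mL of trilostane (Tri) or with the hormone and the inhibitor together (Fsh+Tri). Arrays were also made of 3 testis samples at day 0, before culture (T0). Fsh is the pituitary hormone that acts on the somatic cells of the testis, and trilostane inhibits 3 beta-hydroxysteroid dehydrogenase, the enzyme that makes Δ4 steroids, so that the 4 treatments ask which effects of Fsh need steroid synthesis. The replicates of a treatment are wells of a single pool of explants, so that a p-value here covers no more than differences between wells. Values are normalized intensities on the log2 scale, where a difference of 1 is a doubling, and they are compared within a clone and not between clones. As whole tissue was measured, fewer cells of a type and less RNA per cell cannot be told apart.

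Transsulfuration carries sulfur from methionine to cysteine. Cystathionine beta-synthase joins homocysteine and serine into cystathionine, and cystathionine gamma-lyase then splits cystathionine to release cysteine, a building block of glutathione. Both enzymes can also make hydrogen sulfide. Ornithine decarboxylase turns ornithine into putrescine and is the first and rate-limiting step of polyamine synthesis, and polyamines are needed by dividing cells. The polyamine branch draws on the methionine cycle as well, through decarboxylated S-adenosylmethionine.

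Between 8184 and 8972 clones had a value on an array, 4565 clones entered the fit of the 24 cultured arrays and 4883 that of all 27, and all 3 members passed both filters. Their means lay below the median of the experiment in T0 for *cth*, and in Ctrl and T0 for *cbs*. *odc1* lay above this median in all 5 groups. Ctrl replicate 4 stood apart from its group, with a median absolute deviation from the other Ctrl arrays of 0.366 over all clones. This value was 0.304 for T0 replicate 1, 0.279 for Ctrl replicate 1 and between 0.159 and 0.273 for the others. The labels give all 6 Ctrl arrays as stage I-II of testis maturation, with mostly A-spermatogonia, and 3 Fsh, 4 Tri, 2 Fsh+Tri and 1 T0 arrays likewise. The others are labelled stage III, with B-spermatogonia and the first meiotic cells, although by the methods of the paper the wells held a mixture of both.

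*cth*, the enzyme that releases cysteine, had its lowest level before culture and its highest with Fsh alone. The T0 arrays had log2 levels of 6.48, 6.18 and 6.06. In Ctrl the level ran from 6.31 on replicate 4 through a median of 7.31 to 7.68. With Fsh the lowest array was at 8.39, the median at 8.63 and the highest at 8.83, so that all 6 Fsh arrays lay above all 6 Ctrl arrays. This was true of 1.05% of all clones tested, and as the clone was chosen for its response to Fsh nothing is read from it. With trilostane alone, *cth* ranged from 6.69 to 7.17 with a median of 6.80, and with Fsh+Tri from 7.33 to 7.79 with a median of 7.57. Fsh+Tri lay wholly above Tri, as for 1.29% of clones, and wholly below Fsh, as for 0.723%. In the order of the means, T0, Tri, Ctrl, Fsh+Tri and Fsh, the arrays overlapped between Tri and Ctrl and between Ctrl and Fsh+Tri, and did not overlap at the other steps.

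The difference between Fsh and Ctrl was 1.40 for *cth* (standard error 0.17, 2.63-fold), and that between Fsh+Tri and Tri was 0.69 (standard error 0.17, 1.62-fold). The response with trilostane minus that without it was -0.71 (standard error 0.24). Fsh+Tri was below Fsh by 1.04 (standard error 0.17, 2.06-fold), and Tri was below Ctrl by 0.34 (standard error 0.17). Without Ctrl replicate 4, the lowest Ctrl array, Fsh minus Ctrl was 1.22 and Tri minus Ctrl was -0.52. The difference between the responses was then -0.52 (standard error 0.19).

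**Figure D1:**
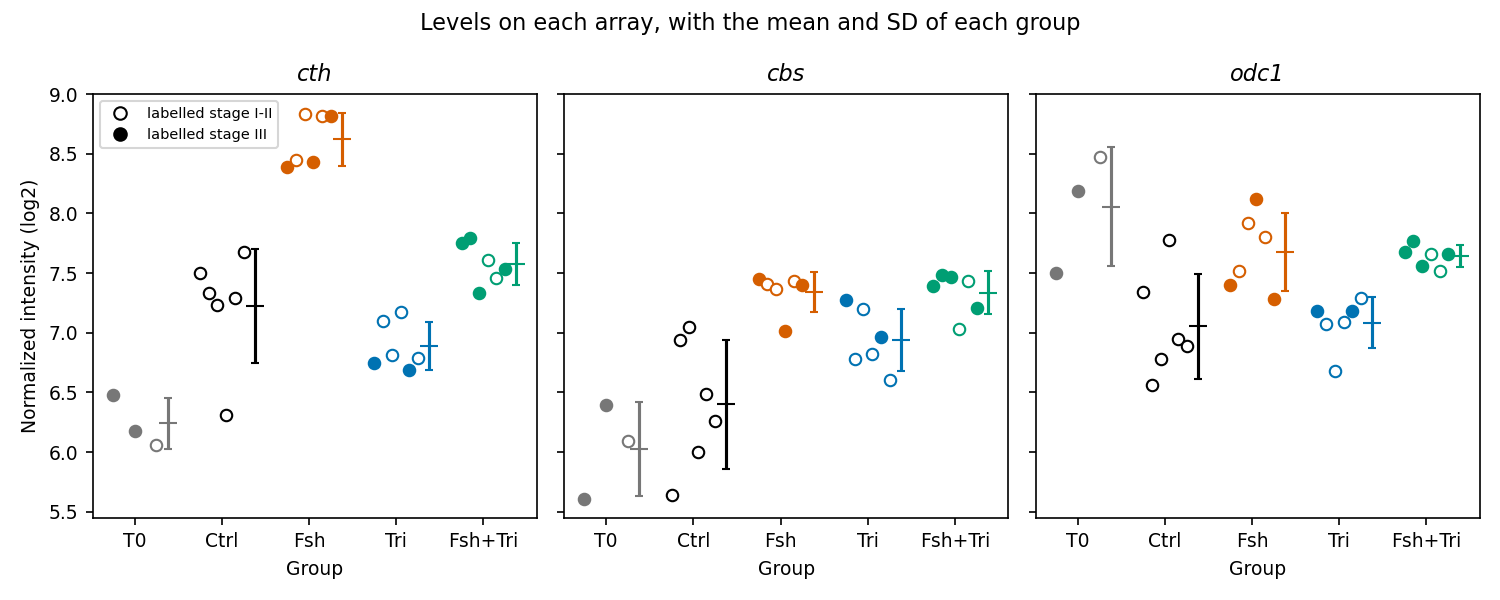
Normalized intensity (log2) of *cth*, *cbs* and *odc1* on each array of T0 (3 arrays), Ctrl, Fsh, Tri and Fsh+Tri (6 arrays each), in the order of the replicate numbers within a group. Open points are arrays labelled stage I-II and filled points stage III, and the bars beside them give the mean and SD of the group. *cth* is highest with Fsh alone (mean 8.62), *cbs* is alike with Fsh and Fsh+Tri (means 7.34 and 7.34), and *odc1* is lowest in Ctrl and Tri (means 7.05 and 7.08).

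*cbs*, the enzyme one step before, was low and variable in Ctrl and higher in the other cultured groups. Its 3 T0 arrays were at 5.61, 6.39 and 6.09. In Ctrl, replicates 1 and 4 were lowest at 5.64 and 6.00, replicates 5 and 6 were at 6.49 and 6.26, and replicates 2 and 3 were highest at 6.94 and 7.05. These Ctrl arrays overlapped with T0, whose lowest array lay below all of them, and their SD of 0.54 was more than that of any other cultured group. With Fsh, 5 arrays lay between 7.37 and 7.45 and replicate 4 at 7.01, just below the highest Ctrl array. Tri ranged from 6.60 to 7.27 with a median of 6.89, and Fsh+Tri from 7.03 to 7.48 with a median of 7.41. The means ran from T0 (6.03 ± 0.39, SD, n = 3) through Ctrl (6.40 ± 0.54, n = 6), Tri (6.94 ± 0.26, n = 6) and Fsh+Tri (7.34 ± 0.18, n = 6) to Fsh (7.34 ± 0.17, n = 6), and each group overlapped with the next.

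Fsh minus Ctrl was 0.94 for *cbs* (standard error 0.18, 1.92-fold) and Fsh+Tri minus Tri was 0.40 (standard error 0.18, 1.32-fold), and the second response minus the first was -0.55 (standard error 0.25). For *cth* and *cbs* alike the response was smaller with trilostane, but the levels behind it differed. For *cth* the difference lay mainly between the groups with Fsh, where Fsh+Tri minus Fsh was -1.04. For *cbs* it lay between the groups without Fsh, where Tri minus Ctrl was 0.54 (standard error 0.18), and Fsh+Tri minus Fsh was -0.01 (standard error 0.18). The 2 lowest Ctrl arrays carried much of this for *cbs*. Without Ctrl replicates 1 and 4, a setting added after seeing the data, Fsh minus Ctrl was 0.66, Tri minus Ctrl 0.25 and the difference between the responses -0.26.

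*odc1*, which opens the polyamine pathway, had its highest mean before culture. T0 replicates 2 and 3 were at 8.19 and 8.47 and T0 replicate 1 at 7.50. Ctrl ranged from 6.56 to 7.78 with a median of 6.92, and Tri from 6.68 to 7.29 with a median of 7.14. All 6 Tri arrays lay below all T0 arrays, as for 11% of clones tested, whereas Ctrl replicate 4, the highest Ctrl array, lay above the lowest T0 array. Fsh ranged from 7.28 to 8.12 with a median of 7.66. Fsh+Tri kept to the narrowest range, from 7.52 to 7.77, with a mean of 7.64 ± 0.09 (SD, n = 6). It lay wholly above Tri, as for 1.29% of clones, and as the clone was chosen for its response to Fsh nothing is read from it. Fsh overlapped with Ctrl, with Fsh+Tri and with T0.

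The response of *odc1* to Fsh had similar values with and without trilostane. Fsh minus Ctrl was 0.62 (standard error 0.17, 1.54-fold), Fsh+Tri minus Tri was 0.56 (standard error 0.17, 1.47-fold), and the second minus the first was -0.06 (standard error 0.24) with a 95% interval from -0.55 to 0.43. Tri minus Ctrl was 0.03 and Fsh+Tri minus Fsh was -0.03 (standard error 0.17 each). Without Ctrl replicates 1 and 4, the highest Ctrl arrays for *odc1*, Fsh minus Ctrl was 0.87 and the difference between the responses -0.32.

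**Figure D2:**
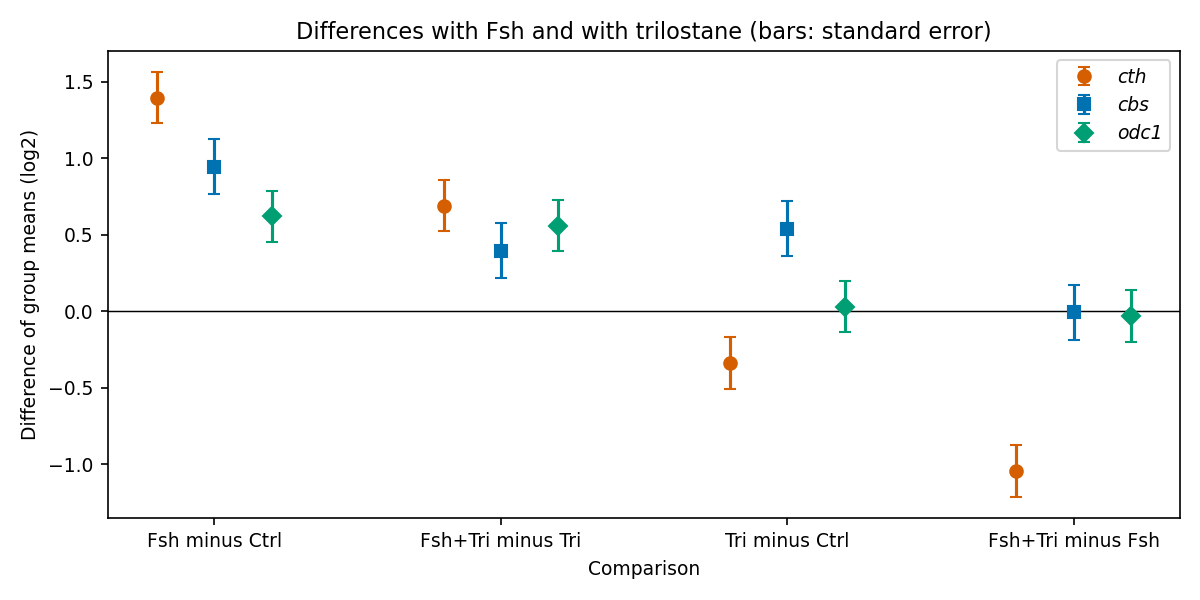
Differences between group means (log2, vertical axis) of *cth*, *cbs* and *odc1* for the 2 comparisons of Fsh (against Ctrl, and with trilostane against Tri) and the 2 of trilostane (against Ctrl, and with Fsh against Fsh), 6 arrays a group; bars are standard errors of the fit. All 3 clones are above 0 in both comparisons of Fsh, by which they were chosen, and in the comparisons of trilostane *cth* is at -0.34 and -1.04, *cbs* at 0.54 and -0.01 and *odc1* at 0.03 and -0.03.

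Averaged over both Fsh doses, *cth* was lower with trilostane, and neither *cbs* nor *odc1* passed the test. For *cth* the average joins -0.34 without Fsh (95% interval -0.68 to 0.003) and -1.04 with Fsh. For *cbs* it joins 0.54 without Fsh (95% interval 0.17 to 0.91) and -0.01 with Fsh. These parts were not tested apart, and a lowering of *cth* by trilostane alone is not shown. The mean of Tri and Fsh+Tri minus that of Ctrl and Fsh was -0.69 for *cth* (standard error 0.12, 1.61-fold, adjusted p = 0.000323 in limma, with Benjamini-Hochberg adjustment over 4565 clones). Of all clones tested, 0.350% were lower with trilostane at an adjusted p under 0.05 and 1.42% were higher, and *cth* ranked 31 among all by the p-value of limma before adjustment. The study chose its clones with limma on these same arrays, which favours clones of small spread between wells. That spread enters this rank and the limma p-values for trilostane and for culture. A two-sided exact permutation test on the 24 arrays gave p = 0.000208 for *cth*. The same difference was 0.27 for *cbs* (standard error 0.13, 95% interval 0.01 to 0.52, adjusted p = 0.439 in limma, exact permutation p = 0.0755), in the other direction. It was -0.00 for *odc1* (standard error 0.12, 95% interval -0.24 to 0.24, adjusted p = 0.999 in limma, exact permutation p = 0.997), so that changes of up to 0.24 in either direction cannot be told from none. On the 15 cultured arrays labelled stage I-II alone, the difference for *cth* was -0.71 with an adjusted p of 0.108 in limma. With the stage as a covariate over all 24 arrays it was -0.66 (adjusted p = 0.00133 in limma). The stages are unevenly spread over the groups, so that these settings are not independent of the choice by Fsh.

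Averaged over the 4 cultured groups, *odc1* lay below T0, and *cth* and *cbs* lay above it. The groups with Fsh enter this average, and a rise with Fsh lifts it. The mean of the 4 cultured groups minus T0 was 1.34 for *cth* (standard error 0.18, 2.53-fold, adjusted p = 5.02e-07 in limma over 4883 clones) and 0.97 for *cbs* (standard error 0.19, 1.97-fold, adjusted p = 0.000246 in limma). *odc1* was lower in culture by 1.62-fold (difference -0.69, standard error 0.19, adjusted p = 0.00569 in limma). Over all clones, 15.4% were higher and 13.9% lower in culture past the same threshold, so that a change with culture was common. *cth* and *cbs* reached the median of the experiment only in cultured groups, so that the filter on level by itself favours a rise with culture for them. Their p-values for culture do not allow for this. *odc1* reached the median in T0 as well. Two-sided exact permutation tests gave p = 0.00410 for *cth*, p = 0.00581 for *cbs* and p = 0.0123 for *odc1*, where the smallest p that 3 arrays against 24 allow is 0.000342. The T0 group had 3 arrays, of which replicate 1 was read with a newer version of the image software. Without T0 replicate 3, the highest T0 array for *odc1*, its difference was -0.49 and no longer passed (adjusted p = 0.112 in limma). On arrays labelled stage I-II alone, which hold 1 T0 array, that of *cbs* was 0.88 (adjusted p = 0.193 in limma).

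The mean over 4 treatments hides unlike levels, which are given as a description since the groups with Fsh enter them. Ctrl minus T0 was 0.98 for *cth* (standard error 0.20), 0.37 for *cbs* (standard error 0.22) and -1.003 for *odc1* (standard error 0.22). The 95% interval for *cbs* ran from -0.09 to 0.83, so that a rise in untreated culture is not shown for it. No member had all Ctrl arrays above or all below T0, as 9.24% and 7.93% of clones did. For *cth* and *odc1* this rested on Ctrl replicate 4 alone. Its *cth* level of 6.31 lay below the highest T0 array at 6.48, and the other Ctrl arrays lay at 7.23 or above. Its *odc1* level of 7.78 lay above the lowest T0 array at 7.50, and the other Ctrl arrays lay at 7.34 or below. With Fsh, *cth* was above T0 by 2.38 (standard error 0.20, 5.21-fold) and *cbs* by 1.31 (standard error 0.22, 2.49-fold), and both had all Fsh arrays above T0, as for 12.9% of clones. The same held with Tri (12.9% of clones) and with Fsh+Tri (14.8%), where *cth* was above T0 by 0.65 and 1.34 and *cbs* by 0.91 and 1.31. *odc1* with Fsh was below T0 by 0.38 (standard error 0.22). On the arrays read with the older software alone, Ctrl minus T0 was 0.03 for *cbs*, which then had 2 T0 arrays.

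The 3 other clones tied to these pathways were higher in culture. They were *slc7a3* (tcbk0031.o.22), which imports arginine, lysine and ornithine, *pgd* (tcac0006.o.18), an enzyme of the pentose phosphate pathway that supplies NADPH, and a clone that its own sequence matches to glutaredoxin, an enzyme that uses glutathione, and its contig to *rhobtb3* (tcba0020.n.06). They too had been chosen by their response to Fsh. All 3 passed the test for culture and were higher, as 15.4% of all clones were, with differences of 0.91 for *slc7a3* (standard error 0.15, adjusted p = 1.80e-05 in limma), 2.90 for *pgd* (standard error 0.21, adjusted p = 2.31e-12 in limma) and 2.04 for the clone of glutaredoxin or *rhobtb3* (standard error 0.16, adjusted p = 9.08e-12 in limma). Their median was 2.04, beside -0.02 over all clones tested. As the 3 clones were picked from a list filtered on these arrays, with earlier results known, nothing is read from this about the pathways. *slc7a3* had a T0 mean of 6.14, below the median of the experiment at 6.42, so that it too passed the filter on level only in culture.

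With trilostane, 1 of these 3 clones passed, and it was higher, as 1.42% of all clones were. *pgd* had a median of 9.62 in Ctrl and 10.00 in Fsh against 10.25 in Tri and 11.03 in Fsh+Tri, and the mean effect of trilostane was 0.96 (standard error 0.13, 1.94-fold, adjusted p = 8.01e-06 in limma). All 6 Fsh+Tri arrays of *pgd*, from 10.87 to 11.43, lay above all Fsh arrays, from 9.78 to 10.39, as for 1.40% of clones, the opposite order to that of *cth*. The effect was 0.13 for *slc7a3* (standard error 0.10, adjusted p = 0.730 in limma) and 0.08 for the clone of glutaredoxin or *rhobtb3* (standard error 0.10, adjusted p = 0.858 in limma).

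**Figure D3:**
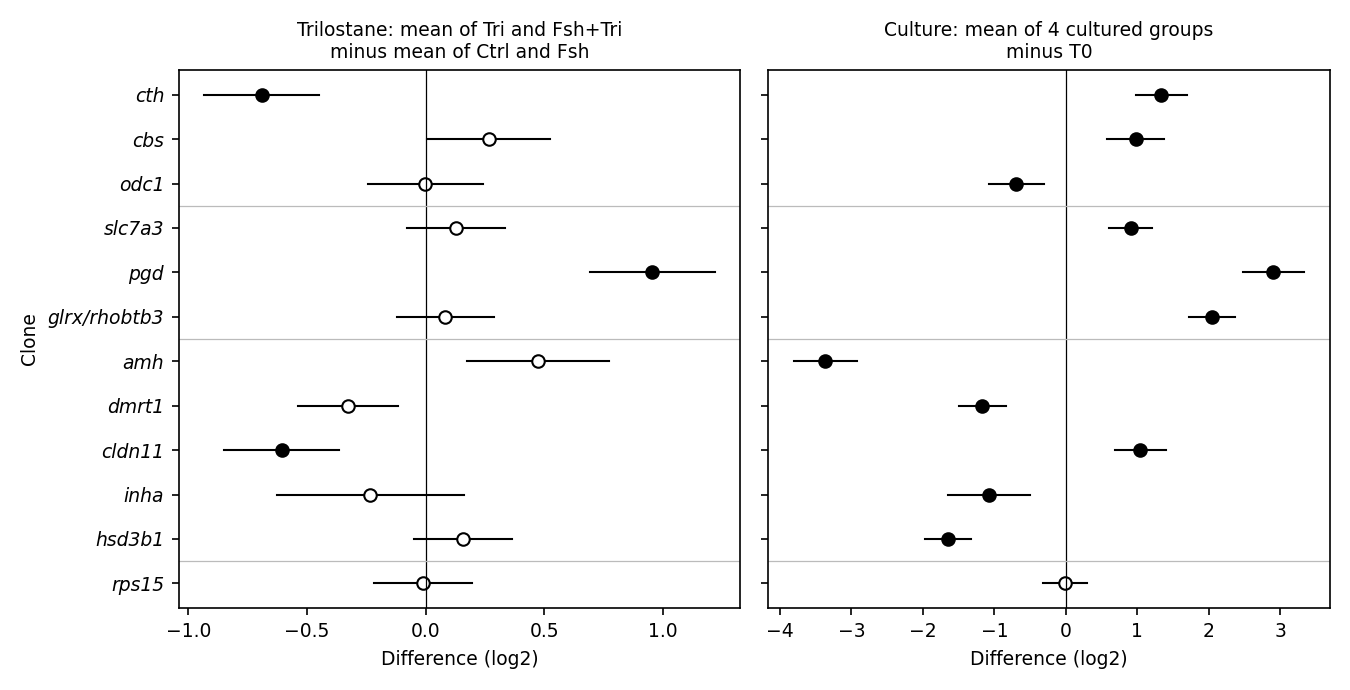
Tested differences (log2, horizontal axes) with 95% intervals, for trilostane over both Fsh doses on 24 arrays and for culture over 4 treatments on 27 arrays; filled points have an adjusted p under 0.05 in limma. Rows are the 3 enzymes, the 3 clones of neighbouring pathways, 5 cell type markers and *rps15*. With trilostane, averaged over both Fsh doses, *cth* is lower (-0.69) and *pgd* higher (0.96). Averaged over the cultured groups, *cth*, *cbs* and all 3 neighbours are above T0, and *odc1* (-0.69) and 4 of the 5 markers are below. *cth*, *cbs* and *slc7a3* passed the filter on level only in culture, which by itself favours a rise.

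Markers of somatic cells of the testis moved in the same comparisons, and their part in the results of the enzymes was not tested. Of 4 clones for genes of Sertoli cells, the cells that nurse the germ cells, 3 were lower in culture and 1 was higher, where 13.9% of all clones were lower and 15.4% higher. *amh*, a hormone of immature Sertoli cells, differed by -3.36 (adjusted p = 2.20e-13 in limma), the transcription factor *dmrt1* by -1.17, the inhibin subunit *inha* by -1.07 and the junction protein *cldn11* by 1.04. *hsd3b1*, the steroidogenic enzyme that marks Leydig cells, was lower by 1.65 (adjusted p = 8.09e-10 in limma). The mean log2 level of the 4 Sertoli markers ran from 9.89 to 9.98 in T0, from 7.49 to 8.93 in Ctrl (median 8.74), from 9.09 to 9.32 with Fsh, from 8.23 to 8.72 with Tri and from 8.80 to 8.92 with Fsh+Tri. This mean joins clones that moved in opposite directions and is no measure of the number of Sertoli cells. Fsh minus Ctrl was -0.26 for *amh*, 0.80 for *dmrt1*, 0.65 for *cldn11* and 1.41 for *inha*. Ctrl replicate 4 was the lowest Ctrl array of all 4 Sertoli markers (*amh* 6.94, *dmrt1* 6.5, *cldn11* 8.52, *inha* 7.98), and so of their mean. The differences of the markers were not computed without this array. With trilostane, *cldn11* fell as *cth* did (-0.61, standard error 0.12, adjusted p = 0.00195 in limma) and the other 4 markers did not pass, with differences from -0.33 for *dmrt1* to 0.47 for *amh*. *rps15*, the ribosomal protein used as reference, differed by -0.02 with culture and by -0.01 with trilostane. All of these marker clones except *rps15* had been chosen by their response to Fsh as well.

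Over the 24 cultured arrays the 3 enzymes had different companions. For each enzyme, the 3 named clones with the highest Pearson correlation were taken from 84 named clones, and their rank is given among 4507 clones with a value on all 24 arrays. The 84 named clones had also been chosen on these arrays by their response to Fsh, which by itself favours high correlations with the enzymes. The arrays share a pool of explants and the differences between treatments, and the coefficients are descriptions. *cth* was most like *ctsl1*, a cathepsin of the lysosome (r = 0.92, rank 1), *sptbn1*, a spectrin of the membrane skeleton (r = 0.91, rank 2), and *vt1* (r = 0.90, rank 3). After each group's mean was taken away, r was 0.61, 0.63 and 0.23. Ctrl replicate 4 was the lowest Ctrl array of *cth*, *ctsl1* and *sptbn1* (6.31, 9.75 and 7.3). The coefficients within groups were not computed without this array, so how far they rest on it is not known. *ctsl1* ran between 11.49 and 11.91 with Fsh and between 10.55 and 11.17 with Fsh+Tri, in the same order as *cth*.

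*cbs* was most like *slc7a3*, the transporter of cationic amino acids (r = 0.88, rank 1), followed by *fasn*, which makes fatty acids (r = 0.82, rank 3), and *abca1*, which exports cholesterol (r = 0.82, rank 5). Within groups r was 0.68, 0.55 and 0.45. Ctrl replicates 1 and 4 were the lowest Ctrl arrays of both *cbs* (5.64 and 6.00) and *fasn* (7.56 and 7.58). These coefficients were not computed without those arrays either, so how far they rest on them is not known. In Ctrl, *slc7a3* was highest on replicates 2 and 3 (6.88 and 7.01), as *cbs* was. It was lowest on replicates 4, 5 and 1 (6.36, 6.38 and 6.39), of which replicate 5 was the third highest for *cbs*. *odc1* was less closely matched, by *zgc:109868* (r = 0.73, rank 1), the peptide precursor *tac1* (r = 0.70, rank 5) and *slc25a5*, a carrier of ADP and ATP in mitochondria (r = 0.68, rank 8), with values of 0.42, 0.10 and 0.08 within groups. Ctrl replicate 4 was the highest Ctrl array of both *odc1* and *zgc:109868* (7.78 and 9.68), and the value of 0.42 includes it.

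**Figure D4:**
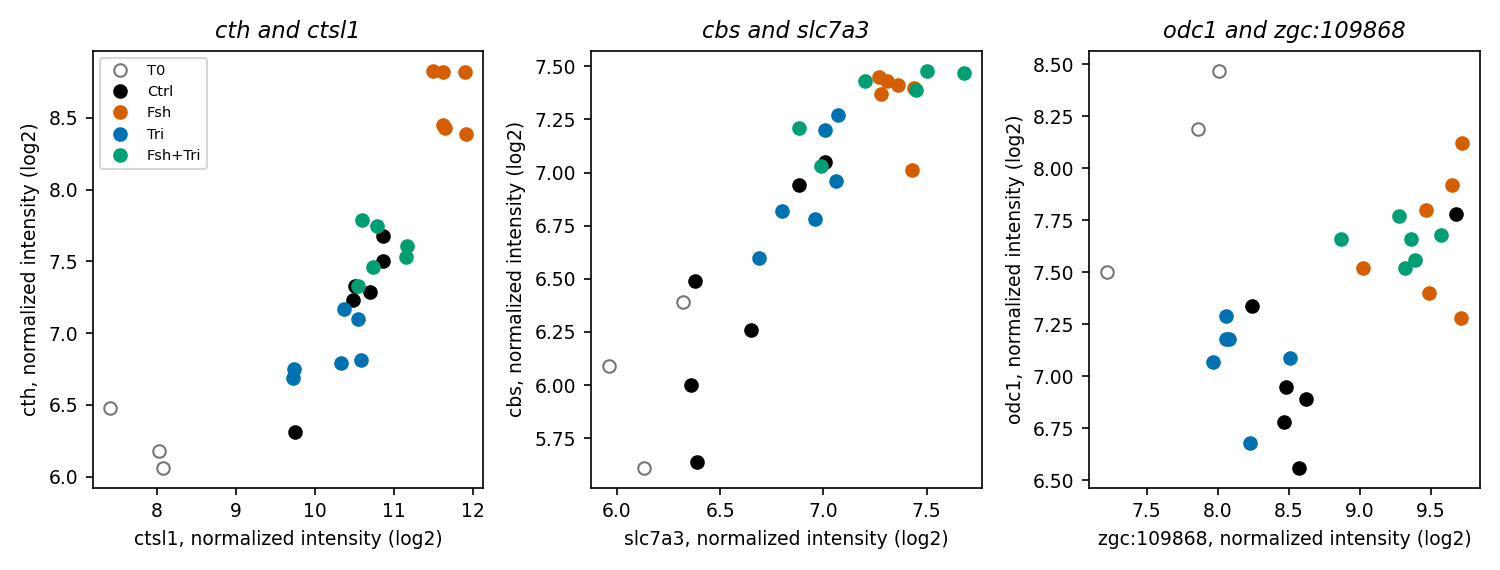
Normalized intensity (log2) of each enzyme (vertical axis) against the named clone most like it over the 24 cultured arrays (horizontal axis), 1 point for each of 27 arrays, with T0 open. *cth* and *ctsl1* are both highest with Fsh alone, *cbs* and *slc7a3* are lower on most Ctrl arrays than in the groups with Fsh (r = 0.88), and the T0 arrays of *odc1* lie high while *zgc:109868* is low there.

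Among themselves the enzymes were less alike. Over the 24 arrays r was 0.46 between *cth* and *cbs* (Spearman's rho 0.51), 0.46 between *cth* and *odc1* (rho 0.51) and 0.24 between *cbs* and *odc1* (rho 0.40). Within groups *cbs* and *odc1* ran against each other, with r = -0.66. Ctrl replicates 1 and 4, the lowest Ctrl arrays of *cbs*, were the highest of *odc1* (7.34 and 7.78). Without these arrays the within-group r of *cbs* and *odc1* was -0.50 over 22 arrays. That between *cth* and *odc1* went from -0.38 to 0.10, and that between *cth* and *cbs* from 0.06 to -0.26.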

How the data were processed

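The members, lists and tests were chosen with earlier results of these data known. Groups came from the sample labels. Spot signals of nylon cDNA arrays had been corrected by the authors for the amount of spotted cDNA, as read with a vector oligonucleotide, brought to log2 and quantile normalized, and the deposited log2 values were used. The spots of the deposited scanner files carry no clone name and were not used, apart from the software version. Water and vector controls (192 rows) were left out. Tested clones were measured on 80% of the arrays or more and reached, in the mean of 1 group or more, the median of the clones so measured. Group means were fitted with limma 3.58.1 (lmFit, eBayes) in R 4.3.3, with Benjamini-Hochberg adjustment over all clones tested and a threshold of 0.05, and the script was tested on simulated data. Named were the 3 enzymes, 3 clones of neighbouring pathways, 5 cell type markers, *rps15* and, for each enzyme, the 3 named clones of highest Pearson r over the cultured arrays; singled-out arrays were chosen after their values were seen. Alternatives covered the filters, normalization, weights, stage, software and each array left out. Figures used matplotlib 3.10.9 in Python 3.11.15. The number of arrays limits the precision.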

Additional observations from a re-analysis of the deposited data

Results flagged for a closer look

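Within the 24 groups of 6 arrays examined for the 3 enzymes and the 3 clones of neighbouring pathways, 4 held an array that lay far from the others, where chance marks about 1 in 20. The clones were read on the same arrays, so that these groups are not independent and no excess is read from the count. *cth* was lowest on Ctrl replicate 4, at 6.31 on the log2 scale, and *pgd* was lowest on the same array, at 8.73. *cbs* was lowest with Fsh on replicate 4, at 7.01, where the other 5 arrays lay between 7.37 and 7.45. *odc1* was lowest with trilostane on replicate 3, at 6.68.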

How the results depend on the processing

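Settings that leave cultured arrays out, weight the arrays or add the stage or software unbalance the groups. Their tested effects are then not fully independent of the choice by Fsh. The mean effect of trilostane on *cth* stayed between -0.78 and -0.65 and past the threshold when each array was left out, with adjusted p-values in limma up to 0.00104. On stage I-II arrays alone it was -0.71 and did not pass. For *cbs*, at 0.27, it lay between 0.19 and 0.33 with each array left out, at 0.14 on stage I-II arrays and at 0.12 without Ctrl replicates 1 and 4 together, and passed in none of these. For *odc1*, at -0.00, the sign carried no information: it lay between -0.049 and 0.072 with an array left out, at 0.083 with array weights, at 0.035 on the arrays read with the older software and at 0.13 without Ctrl replicates 1 and 4 together, the last 2 settings being chosen after seeing the data. The count of clones lower with trilostane was 16, and it was 39 with array weights, 6 on stage I-II arrays, 44 without Ctrl replicates 1 and 4, and between 14 and 34 with each array left out, the highest without Ctrl replicate 4. The count of higher clones was 65, and 22 on stage I-II arrays. The mean effect of culture lay between 1.25 and 1.46 for *cth*, 0.76 and 1.15 for *cbs* and -0.97 and -0.49 for *odc1* with each array left out, where only *odc1* without T0 replicate 3 lost its call. On stage I-II arrays, with 1 T0 array assumed to vary like the other groups, *cbs* had 0.88 and did not pass, and 185 clones were higher and 110 lower, against 751 and 681. On the arrays of the older software 453 were lower. Ctrl minus T0 of *odc1* was -1.38 with array weights and -1.42 on stage I-II arrays, and that of *cbs* 0.030 with the older software. Replicate numbers did not pair the arrays (median correlation of same-numbered arrays -0.06, over 0.1 in 4 of 36 pairs). The replicate block left the effect of trilostane on *cth* at -0.69 (adjusted p = 0.00106 in limma) and the effect of culture at 1.36 for *cth*, 1.09 for *cbs* and -0.77 for *odc1*, and it changed no call of the enzymes. The planned use of scanner intensities was not run, as their spots could not be matched to clones.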
